A study of Homo sapiens with 8 samples.

Results

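The matrix metalloproteinase (MMP) cluster is described here as the ATAC-seq peaks that lay in or touched chromosome 11, 102350000 to 102900000 (hg19), a span of 550 kb given by position and not by any measured value. It held 76 of the 411408 peaks in 4 peak lists, which merged into 23 of 146099 accessible regions. The cells were G401, an established rhabdoid tumour line without SMARCB1 that had been made to re-express it under doxycycline. Day 0 cells, labelled SMARCB1 -/-, had no induction, and the cells labelled SMARCB1 +/+ had doxycycline at 1 µg/ml for 1, 3 or 7 days. All groups share the same stable inducible line, kept in Tet-free serum, and the sources used here do not say whether that line is 1 clone. Each day had 2 replicates in the labels but 1 peak list in the files, so changes between days carry no p-value and cannot be set against the spread of replicates. The list whose name carries no day was assigned to day 0 because no other list was left for it, and all day 0 values depend on that assignment.

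SMARCB1 is a core subunit of SWI/SNF, a complex that moves nucleosomes and so opens regulatory DNA. AP-1, a dimer of FOS and JUN family proteins, binds the letters TGANTCA, most often with G or C at N. Matrix metalloproteinases are secreted zinc enzymes that cut collagen and other matrix proteins, and several genes of the cluster are textbook AP-1 targets that respond to phorbol esters, growth factors and cytokines. MMP1, MMP8 and MMP13 are collagenases, MMP3 and MMP10 are stromelysins, MMP7 is matrilysin, MMP12 is the macrophage elastase and MMP20 is enamelysin of developing teeth. MMP27 is a less studied member.

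In the RefSeq gene table for GRCh38.p14 the 9 members lie in the order MMP7, MMP20, MMP27, MMP8, MMP10, MMP1, MMP3, MMP12 and MMP13 along chromosome 11. The table has 7 other entries between the first and the last of them, all pseudogenes or non-coding RNAs, among them MMP20-AS1 and WTAPP1. The peaks are in hg19 and the table is in another build, so which peak lies at which gene was not analysed here, and the regions below are named by number and position only. A peak also says nothing of expression, which was not measured in these samples.

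Promoter sequences are shown because the cluster is described as a set of AP-1 targets. RefSeq promoter windows were matched for 5 of the 9 members, MMP7, MMP20, MMP27, MMP8 and MMP10. MMP1, MMP3, MMP12 and MMP13 had no window, and the 5 may not stand for them. The shares of these 5 windows were not tested against those of all windows. The 250 bases before the gene start were searched on both strands for TGANTCA, which reads the same on either strand, and for TATAAA, the core of the TATA box. TGANTCA occurred in 3 of these 5 windows, against 6.57% of all 35116 promoter windows of that length, and the AP-1 letters TGAGTCA alone in 1 of them, against 4.20%. The 3 windows with TGANTCA follow, 5′ to 3′ on the gene's strand, with the match in capitals. They lie on the minus strand at chr11:102530748-102530997 for MMP7, chr11:102625333-102625582 for MMP20 and chr11:102780629-102780878 for MMP10, all in GRCh38.p14, and cannot be set against the hg19 positions of the peaks.
MMP7: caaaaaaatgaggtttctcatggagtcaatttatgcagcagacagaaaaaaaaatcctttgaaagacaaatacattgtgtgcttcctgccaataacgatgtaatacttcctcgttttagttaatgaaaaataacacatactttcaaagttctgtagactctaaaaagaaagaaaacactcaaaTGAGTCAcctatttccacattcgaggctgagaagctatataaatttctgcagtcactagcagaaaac
MMP20: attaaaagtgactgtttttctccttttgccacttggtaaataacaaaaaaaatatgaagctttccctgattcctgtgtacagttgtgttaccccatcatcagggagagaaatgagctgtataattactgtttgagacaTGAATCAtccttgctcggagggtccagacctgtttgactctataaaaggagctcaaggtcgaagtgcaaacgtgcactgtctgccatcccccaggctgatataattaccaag
MMP10: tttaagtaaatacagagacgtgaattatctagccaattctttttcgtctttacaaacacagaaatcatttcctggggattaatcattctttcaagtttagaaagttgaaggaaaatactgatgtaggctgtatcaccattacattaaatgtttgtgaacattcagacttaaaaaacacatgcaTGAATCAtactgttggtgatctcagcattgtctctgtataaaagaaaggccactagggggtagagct

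In MMP7 and MMP10 the match stood at the same distance from the gene start, -67 to -61, with TGAGTCA in MMP7 and TGAATCA in MMP10. Both also had TATAAA between the match and the start, at -30 to -25 in MMP7 and -31 to -26 in MMP10. In MMP20 the match, TGAATCA, lay farther out at -112 to -106, with TATAAA at -72 to -67. MMP8 had TATAAA at -110 to -105 and no TGANTCA in its window, and MMP27 had neither. TATAAA was found in 4 of the 5 windows, against 10.7% of all windows. Matching letters are a description of the sequence and not evidence of binding.

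The 4 lists had a similar genome-wide background, which stands in for depth here, as read totals are not given. Reads at each summit were recovered from the deposited fold and p-value, and the genome-wide background, in reads per position, was 6.34, 6.04, 6.73 and 6.10 on days 0, 1, 3 and 7. Dividing summit reads by that background gives the scaled summit used below. The whole lists held 80744, 109876, 117606 and 103182 peaks. Intervals on ratios are exact 95% intervals that cover the counting of reads only, and reads copied by PCR would make them too narrow.

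Called peaks were sparse in the cluster and, at the authors' limit, more numerous on each induced day. The span held 13, 20, 22 and 21 peaks on days 0, 1, 3 and 7. That was 1.54, 1.69 and 1.62 times the day 0 number on days 1, 3 and 7, where the whole lists were 1.36, 1.46 and 1.28 times as long as the day 0 list. Called peaks covered 5.22, 9.14, 11.1 and 10.3 kb of the span on the same days. Covered length was thus 1.75, 2.13 and 1.97 times that of day 0, against 1.35, 1.44 and 1.25 times over the whole lists. With a -log10 q of at least 10 the span held 11, 12, 19 and 14 peaks on days 0, 1, 3 and 7, and covered length was 1.32, 2.11 and 1.39 times that of day 0. At that limit day 1 had 1.09 times the day 0 number. Whole-list ratios at that limit are not given here, so these values cannot be set against the whole-list ratios above. With 4.18 merged regions per 100 kb, the span was less dense than chromosome 11 from its first to its last region, which had 5.36.

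Of the 23 merged regions, 12 had a peak in every list (52.2%, against 41.6% of all merged regions). Another 7 lacked a day 0 peak and were open on all 3 induced days (30.4%, exact Clopper-Pearson interval 13.2 to 52.9, against 13.1% of all merged regions). The remaining 4 were 1 region with peaks on days 3 and 7 only (4.55% of all merged regions had this pattern), 1 on day 3 only (9.73%), 1 on day 7 only (5.27%) and 1 on days 0 and 3 only (1.00%). No region of the span was open on day 0 alone (0 of 23, an upper bound of 14.8%, against 4.26% of all merged regions) or on day 1 alone (0 of 23, against 6.69%). With a -log10 q of at least 10, 9 of the 12 regions kept a peak in every list. Region 9 then had a peak on day 3 only, region 4 had none on day 1 and region 10 none on day 7. The count of 7 also depends on the authors' limit: with a -log10 q of at least 10, only regions 13 and 22 (2 of them) kept peaks on all 3 induced days and none on day 0. With peaks up to 200 bp apart merged, the count was 6 and not 7, as regions 22 and 23 lie 183 bp apart. The intervals treat regions as independent draws, which such close neighbours may not be.

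**Figure D1:**
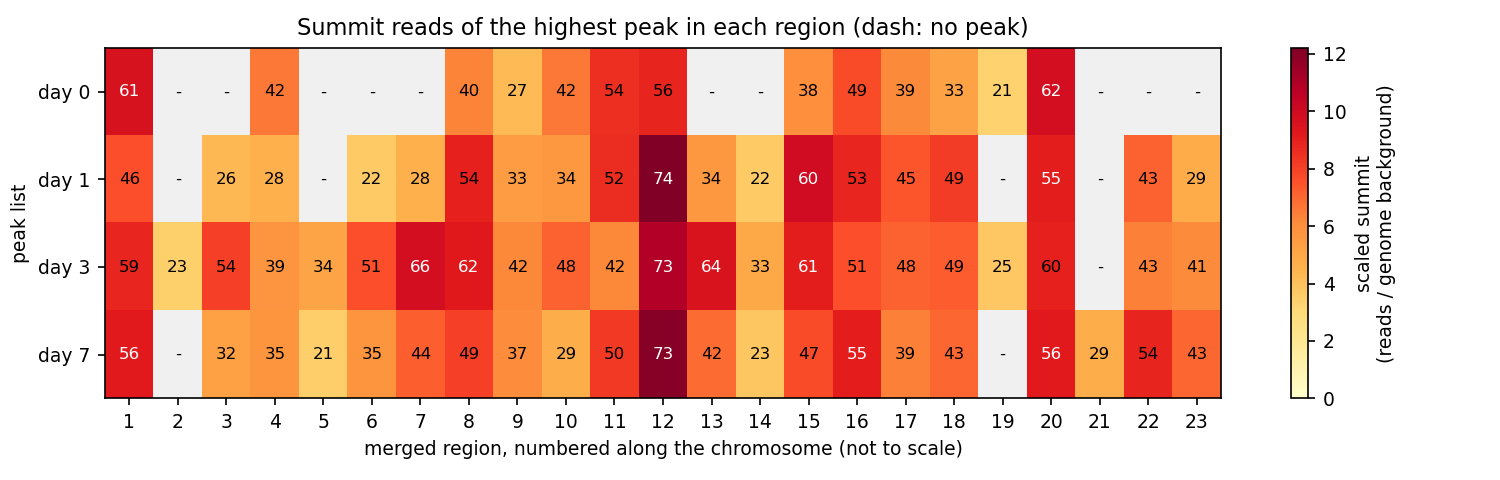
Summit reads in the 23 merged regions of the MMP span (x axis, numbered along chromosome 11) in the 4 peak lists (y axis, by day). Numbers are reads at the highest summit, colour is the summit divided by the genome background of its list, and a dash marks no peak; 10 columns have a dash on day 0, and 7 of those are filled on all 3 induced days.

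Counted by peak, 8 of the 20 day 1 peaks overlapped no day 0 peak (40.0%, against 36.6% of the whole day 1 list). On day 3 it was 9 of 22 peaks (40.9%, against 41.8%) and on day 7 it was 9 of 21 (42.9%, against 35.6%). These shares were near those of the whole lists on all 3 days. With a -log10 q of at least 10 the new peaks were 2 of 12, 8 of 19 and 4 of 14 on days 1, 3 and 7. Whole-list shares at that limit are not given here, so these counts cannot be read as a trait of the cluster. Of the 13 day 0 peaks, 1 overlapped no day 1 peak (7.69%, exact Clopper-Pearson interval 0.195 to 36.0, against 13.0% of all day 0 peaks). On day 3, 0 lacked a counterpart (upper bound 24.7%, against 14.6%), and on day 7 it was 1 (7.69%, 0.195 to 36.0, against 17.5%). All 3 intervals include the whole-list share. The same peak, in region 19, was missing on days 1 and 7.

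The regions open before induction lay unevenly along the span. Region 1, at 102365896 to 102366655, stood alone at the low-coordinate end, 55.5 kb from the next region. It held 61 reads on day 0 and 46, 59 and 56 on days 1, 3 and 7, with authors' folds of 7.71, 6.12, 7.41 and 7.27. Fold is the caller's ratio of the summit to its local background. Day 0 was its highest day, but the day 1 ratio to day 0 of 0.792 had an interval of 0.528 to 1.18.

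Region 20, at 102811561 to 102812145, had the highest day 0 fold of the span, at 8.58. Its summits held 62, 55, 60 and 56 reads on days 0, 1, 3 and 7, and its folds on the induced days were 7.95, 7.90 and 8.03. The share of its list with a lower fold ranged from 92.7% on day 1 to 95.4% on day 0. Scaled summits stayed between 8.92 and 9.77, and the ratios to day 0, from 0.913 to 0.939, all had intervals that include 1.

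The highest summits after induction were at region 12, 102603919 to 102604630. It held 56 reads on day 0, then 74, 73 and 73 on days 1, 3 and 7, and its folds were 7.76, 10.6, 9.58 and 10.0. On days 1 and 7 its fold exceeded that of 99.0% of the list, and on day 0 that of 91.9%. Even so, the ratios of scaled summits to day 0 were 1.39 (0.967 to 2.00), 1.23 (0.856 to 1.77) and 1.36 (0.944 to 1.96) for days 1, 3 and 7. All 3 intervals include 1.

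Region 15, at 102665053 to 102665569, gave the largest ratio to day 0 among the regions open on every day. Its summits held 38, 60, 61 and 47 reads on days 0, 1, 3 and 7, with folds of 5.31, 8.66, 8.03 and 6.76. The day 1 summit was 1.66 times that of day 0 after scaling (1.09 to 2.56), the day 3 summit 1.51 times (0.994 to 2.33) and the day 7 summit 1.29 times (0.821 to 2.03). It was the single region of these 12 with an interval above 1 on day 1 (8.33%, against 10.0% of all regions open on every day). None of the 12 had an interval above 1 on day 3 (against 8.71%) or on day 7 (against 5.36%), and none had one below 1 on days 1, 3 or 7 (against 0.434%, 3.02% and 1.74%). With 1 list per day, the day 1 interval at region 15 has no replicate check.

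Region 18, at 102785245 to 102785859, had a similar course. It held 33 reads on day 0 and 49, 49 and 43 on days 1, 3 and 7, with ratios to day 0 of 1.56 (0.982 to 2.50), 1.40 (0.883 to 2.25) and 1.35 (0.841 to 2.20). Its fold was 4.63 on day 0 and 7.10, 6.47 and 6.20 on the induced days. Its local background equalled the genome-wide one in every list, so fold and scaled summit moved together here.

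**Figure D2:**
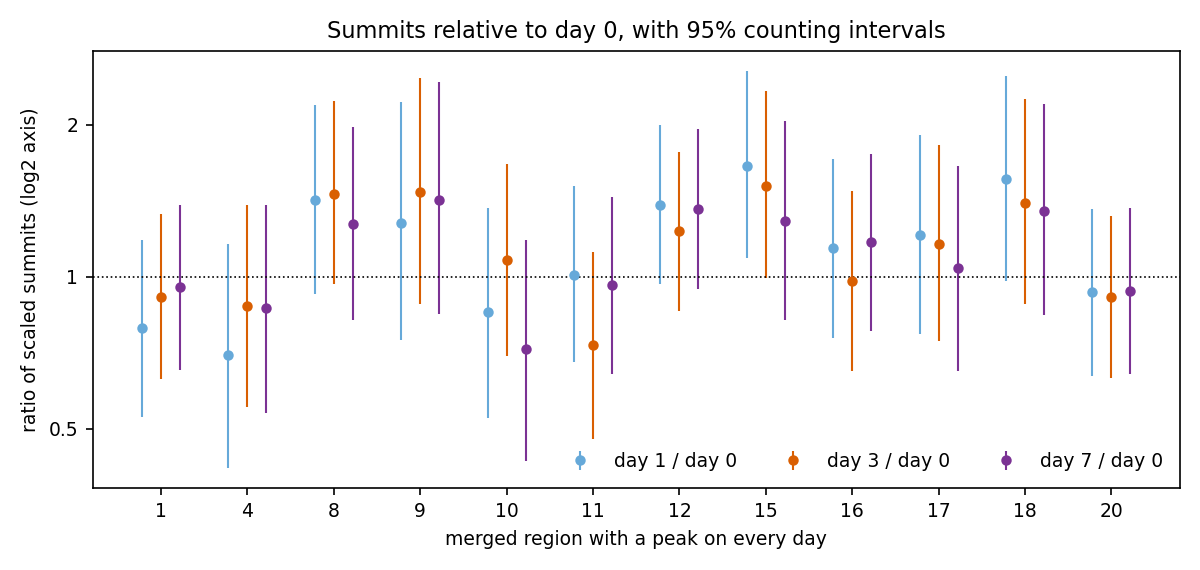
Ratio of the scaled summit on days 1, 3 and 7 to day 0 (y axis, log2 scale) at the 12 regions with a peak on every day (x axis, region number). Points are ratios and bars exact 95% counting intervals; the day 1 interval of region 15, from 1.09 to 2.56, is the one that does not cross the dotted line at 1.

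Regions 16 and 17 lay 2.49 kb apart, at 102678635 to 102679105 and 102681597 to 102682095. Region 16 held 49, 53, 51 and 55 reads on days 0, 1, 3 and 7, and region 17 held 39, 45, 48 and 39. Both stayed within counting error of day 0, with ratios of 0.982 to 1.17 at region 16 and 1.04 to 1.21 at region 17. Beyond region 17 came the longest stretch without a peak in any list, 103 kb up to region 18.

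Regions 10 and 11 formed another close pair, 1.53 kb apart, at 102534972 to 102535466 and 102537000 to 102537548. Region 10 held 42, 34, 48 and 29 reads on days 0, 1, 3 and 7, and its fold was 3.53 on day 7, against 5.48 on day 0. Region 11 held 54, 52, 42 and 50 reads. The lowest ratios to day 0 were 0.718 (0.431 to 1.18) for region 10, on day 7, and 0.734 (0.478 to 1.12) for region 11, on day 3, so the pair was lowest on different days and both intervals include 1. Region 4, at 102463684 to 102464065, held 42, 28, 39 and 35 reads on days 0, 1, 3 and 7 and was highest on day 0. Its lowest ratio was 0.700 (0.418 to 1.16), on day 1.

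Over the 12 regions scaled summits differed from day 0 by a median log2 of 0.23, 0.16 and 0.14 on days 1, 3 and 7, against 0.08, -0.08 and -0.04 over all 60786 regions open on every day (SD over those regions 0.37, 0.43 and 0.34). In the authors' fold the day 7 median of the 12 turned to -0.07. Higher than on day 0 were 8, 7 and 7 of the 12 on days 1, 3 and 7, and the others were lower. The always open regions of the cluster were low ones: their median scaled summit was 6.62, 8.36, 7.43 and 7.87 on days 0, 1, 3 and 7, against 11.0, 12.7, 11.6 and 11.3 over all such regions. Covered length was above that of day 0 at 11 of 12 on day 1 (against 63.5% of all such regions), 9 of 12 on day 3 (against 59.9%) and 10 of 12 on day 7 (against 52.5%). The exact Clopper-Pearson intervals, 61.5 to 99.8%, 42.8 to 94.5% and 51.6 to 97.9%, all include the share over the whole series. Together the 12 covered 1.22, 1.26 and 1.27 times the day 0 length on days 1, 3 and 7, against 1.09, 1.08 and 1.04 times for the same class over the whole series. Without region 9, the widest, left out after seeing the data, the other 11 covered 1.13, 1.13 and 1.12 times.

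The largest widening was at region 9, at 102486080 to 102487069, where peaks covered 213, 701, 894 and 990 bp on days 0, 1, 3 and 7. On day 0 it was 1 peak with 27 reads. The day 1 list had 2 peaks there, of 235 and 466 bp with 26 and 33 reads, and the second overlapped no day 0 peak. By day 3 a single peak of 894 bp overlapped both, with 42 reads, and by day 7 a peak of 990 bp, with 37 reads. The highest summit lay at 102486323 on day 0 and at 102486801, 102486236 and 102486604 on days 1, 3 and 7, a spread of 565 bp. The day 3 summit, 1.47 times that of day 0 (0.884 to 2.47), was the nearest to it. The ratios of days 1 and 7, 1.28 and 1.42, set more distant positions side by side. At the other 11 regions of the class the summits of the 4 lists lay within 127 bp of each other. Region 8, at 102483646 to 102484197 and 1.88 kb before region 9, held 40, 54, 62 and 49 reads on days 0, 1, 3 and 7, with a ratio to day 0 of at most 1.46 (0.967 to 2.23), on day 3.

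**Figure D3:**
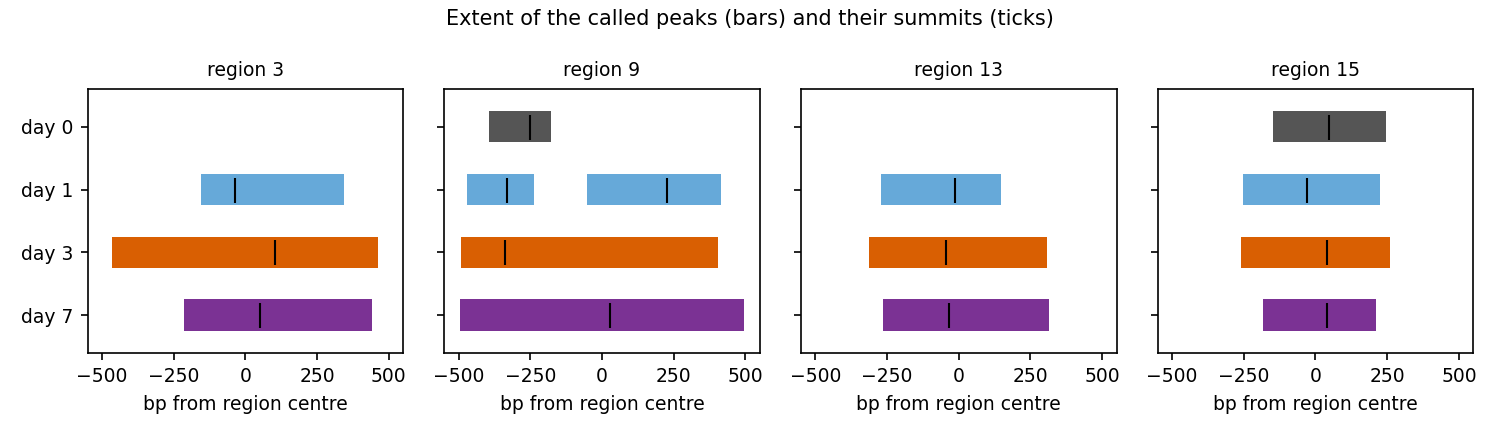
Extent of the called peaks (bars) and their summits (ticks) on days 0, 1, 3 and 7 in regions 3, 9, 13 and 15, in bp from the centre of the merged region. Regions 3 and 13 have no day 0 bar, region 9 has 1 peak of 213 bp on day 0, 2 on day 1 and a single wide one on days 3 and 7, and region 15 keeps 1 peak near the same position.

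Region 19, at 102806306 to 102806573, was the one region with a day 0 peak that was not in every list. It held 25 reads on day 3, with a fold of 3.37, against 21 reads and a fold of 3.00 on day 0, and had no peak on days 1 and 7. Only 27.7% of the day 0 list had a lower fold. With so few reads, absence from 2 lists is not shown to differ from counting error.

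The 10 regions without a day 0 peak lay unevenly along the span and had folds of 2.81 to 7.52. They lay at 102422134 to 102476002, at 102632333 to 102651521 and at 102878330 to 102895782. Between 102651521 and 102878330, where regions 15 to 20 lie, every region had a day 0 peak. The smallest summit listed on day 0 held 18 reads, 2.84 times the background, so a summit under that level would not be in the day 0 list and a missing peak does not mean closed chromatin. Counting each region on each day it had a peak, 12 of 25 summits were at least 2 times that level (48.0%, against 46.1% of such summits over the whole series). By day, these were 1 of 7 on day 1 (against 46.7%), 6 of 9 on day 3 (against 46.7%) and 5 of 9 on day 7 (against 44.6%), so the share over all days was near that of the whole series. The level is that of peaks whose local background equals the genome-wide one, as for 18.5% of day 0 peaks, and a higher local background calls for more reads. Of the 12 summits, 9 were in regions 6, 7, 22 and 23, where the local background was 1.22 to 1.68 times the genome-wide one on those days.

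Region 13, at 102632333 to 102632959, had the highest fold of any of them. It held 34, 64 and 42 reads on days 1, 3 and 7, with folds of 4.97, 7.52 and 5.72. The day 3 summit was 1.69 times that of day 1 (1.10 to 2.64), and the day 7 summit was 0.723 of day 3 (0.478 to 1.08). On day 3 its fold was above that of 92.6% of the list, and the day 3 summit stood at 3.35 times the lowest listed day 0 level.

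Region 3, at 102422826 to 102423752, followed the same course. Its summits held 26, 54 and 32 reads on days 1, 3 and 7, and its folds were 3.83, 6.53 and 4.10. The day 3 summit was 1.87 times that of day 1 (1.15 to 3.10), and its peak was 498, 927 and 653 bp wide on days 1, 3 and 7. Region 2, at 102422134 to 102422355 and 470 bp before it, was a peak of 222 bp with 23 reads and a fold of 3.00, seen on day 3 only.

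Regions 5, 6 and 7 lay within 6 kb between 102470436 and 102476002. Region 7 held 28, 66 and 44 reads on days 1, 3 and 7, the highest day 3 summit among the regions without a day 0 peak. Region 6 held 22, 51 and 35 reads, and region 5 held 21 reads on day 7, against 34 on day 3, with no day 1 peak. Day 3 over day 1 was 2.12 (1.34 to 3.42) at region 7 and 2.08 (1.24 to 3.61) at region 6. The local background moved as well: at region 6 it was 1.00, 1.68 and 1.45 times the genome-wide background on days 1, 3 and 7, and at region 7 it was 1.00, 1.53 and 1.35 times. Since fold divides by that background, the day 3 fold was only 1.30 times the day 1 fold at region 6 and 1.44 times at region 7. These regions are close enough to share reads in the window that sets their background, and the part this had in the folds was not tested.

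At the far end of the span, regions 22 and 23 were separated by 183 bp, at 102894284 to 102895134 and 102895318 to 102895782. Among the 7 regions with peaks on every induced day and none on day 0, they were the ones with their highest scaled summit on day 7. Region 22 held 43, 43 and 54 reads on days 1, 3 and 7, with folds of 5.24, 4.57 and 5.48, and region 23 held 29, 41 and 43 reads, with folds of 3.44, 4.30 and 4.15. The day 7 summit was 1.24 times that of day 1 at region 22 (0.818 to 1.90) and 1.47 times at region 23 (0.896 to 2.44), both within counting error. Their neighbour, region 21 at 102878330 to 102878788, was the one region first seen on day 7, with 29 reads and a fold of 4.10.

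Region 14, at 102651170 to 102651521, had the lowest summits on days 3 and 7 among the 7 regions open on every induced day and not on day 0. Its summits held 22, 33 and 23 reads, its folds were 3.27, 4.40 and 3.38, and its local background equalled the genome-wide one in all 3 lists. No step between its days exceeded counting error, as day 3 over day 1 was 1.35 (0.763 to 2.43) and day 7 over day 3 was 0.768 (0.431 to 1.35).

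**Figure D4:**
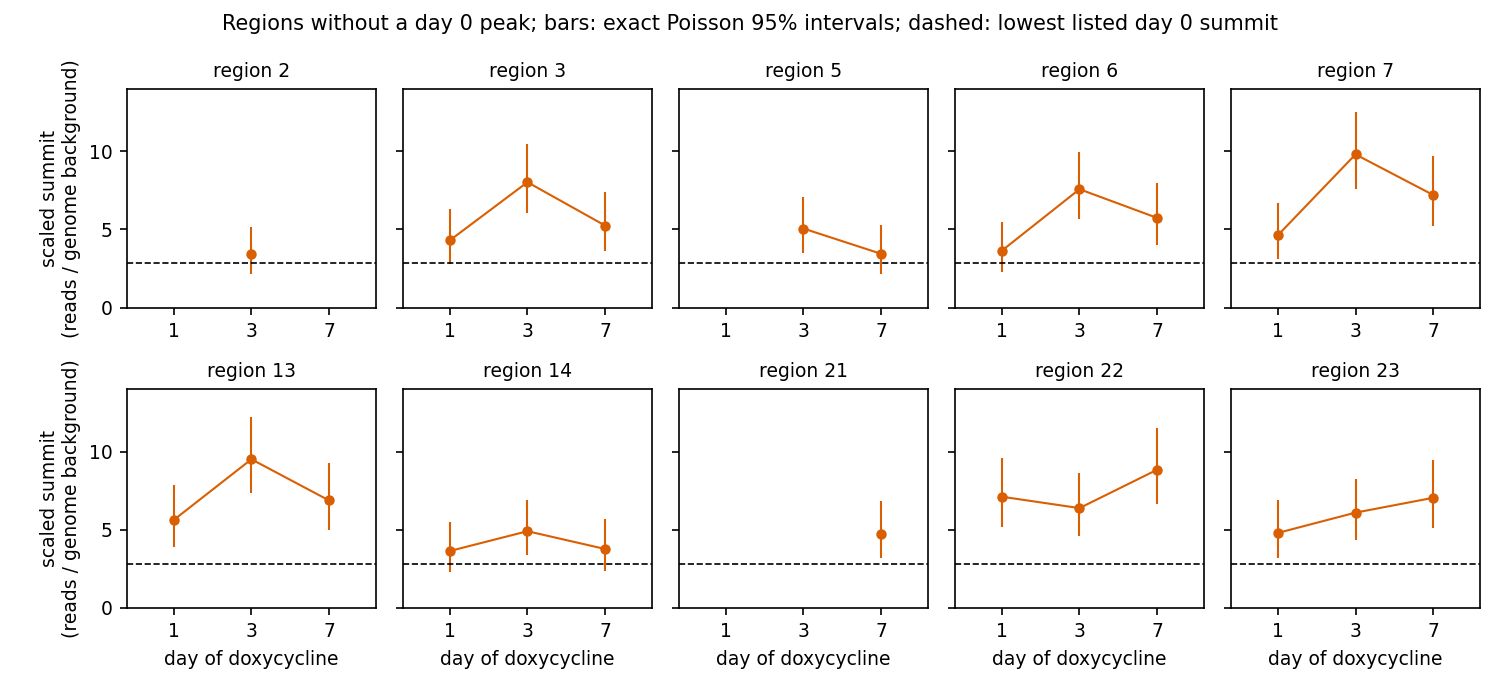
Scaled summits (y axis, reads divided by the genome background of the list) on days 1, 3 and 7 of doxycycline (x axis) at the 10 regions without a day 0 peak. Bars are exact Poisson 95% intervals and the dashed line is the lowest summit listed on day 0, at 2.84. Regions 3, 5, 6, 7, 13 and 14 are highest on day 3, and regions 22 and 23 on day 7. Region 2 has a peak on day 3 only and region 21 on day 7 only.

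Taking these 7 regions together, 0 had their highest scaled summit on day 1 (against 25.8% of all 19074 such regions), 5 on day 3 (71.4%, against 58.5%) and 2 on day 7 (against 15.7%). Regions 3, 6, 7 and 13, or 4 of 7, had an interval of day 3 over day 1 above 1, against 16.2% of all such regions, and 0 of 7 had one below 1, against 0.744%. The exact Clopper-Pearson interval of the 4 of 7, 18.4 to 90.1%, lies above 16.2%. It treats regions as independent draws, but regions 6 and 7 lie 1.24 kb apart and the local background rose at both. For day 7 over day 3, 0 of 7 intervals lay below 1, against 21.6%, and 0 above 1, against 0.430%. Between days 1 and 3 the median log2 step in the cluster was 0.76, against 0.18 over all such regions (SD 0.39), and between days 3 and 7 it was -0.40, against -0.27 (SD 0.37). In the authors' fold, a measure added after seeing the data, the same steps had medians of 0.43, against 0.10 (SD 0.30), and -0.28, against -0.16 (SD 0.29). All 7 were higher on day 7 than on day 1, by a median log2 of 0.31 and a range of 0.05 to 0.66, against a median of -0.08 over all such regions, but the median was 0.17 in the authors' fold, against -0.05, and 0 of the 7 intervals for that step lay above 1 (against 6.10%) or below 1 (against 11.6%). Median scaled summits of the 7 were 4.63, 7.58 and 6.88 on days 1, 3 and 7, against 6.62, 8.03 and 6.39 over all such regions. With 7 regions, and the size of replicate error unknown, the cluster is not shown to differ from the rest of the genome in this course.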

How the data were processed

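ATAC-seq, which tags open DNA with a transposase, was done on 8 G401 samples, 2 on each of days 0, 1, 3 and 7, grouped by their titles. The labels do not say whether replicates were separate cultures. Per the submitters' processing notes, Bowtie2, deepTools, MACS2 2.1.1.20160309 and hg19 were used. The deposited file joins 4 narrowPeak lists, 1 per day; filters and any pooling of replicates are not stated in these sources. Per peak, the authors deposited a score, a fold (ratio of summit to local background), a p-value and a q-value, each as -log10, and a summit offset in bp, another value of the authors' caller.

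Summit reads were recovered from fold, read as reads plus 1 over background plus 1, together with the Poisson tail beyond the observed reads as p. All 411408 peaks were fitted within 0.005 in -log10 p, and the recovery was tested on simulated data. The most frequent background of a list was taken as genome-wide. Peaks overlapping by at least 1 bp were shared or merged, and each day's value is its highest summit in a region. Shares have exact Clopper-Pearson intervals, and summit ratios exact conditional binomial ones. Alternatives were a -log10 q of at least 5 or 10, reciprocal overlap of 50%, summits within 200 bp, merging over 200 bp, and unscaled reads or the authors' fold; the fold of steps between induced days and the covered length without the widest region were added after seeing the data. The span and lists were chosen with earlier results of these data known. The rule for named regions took the 10 highest day 0 folds and the 10 highest induced folds without a day 0 peak; regions 9, 18 and 19 were added after their values were seen. Tests per sample were not possible on 1 list per day. Python 3.11.15, NumPy 2.4.6, pandas 2.3.3, SciPy 1.17.1 and matplotlib 3.10.9 were used. Coordinates are 1-based hg19 unless GRCh38.p14 is named.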

Additional observations from a re-analysis of the deposited data

How the results depend on the processing

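Most counts held within 1.5 times under the other settings tried. At a -log10 q of at least 10 the day 1 list had 12 peaks in the span, the day 7 peaks covered 6642 bp, new peaks fell to 2 on day 1 and 4 on day 7, and 2 regions were gained on all 3 induced days. Day 0 peaks without a day 7 counterpart numbered 0 at a -log10 q of at least 5 and 2 when summits had to lie within 200 bp; at a reciprocal overlap of 50% those without a counterpart numbered 1 on day 3 and 2 on day 7. The smaller counts at the stricter limits come from their construction, since fewer peaks are kept. Summits of 21 to 74 reads limit what can be seen: no ratio to day 0 reached 2 at the 13 regions with a day 0 peak. No paired analysis was possible because the files hold 1 peak list per day and no value per replicate, and leaving out a replicate was not run for the same reason.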

Other observations

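The stretches of 550 kb on either side of the MMP span were denser. The one at lower coordinates held 51 merged regions, 9.27 per 100 kb, and the one at higher coordinates held 34, or 6.18 per 100 kb, against 4.18 in the span. In the lower flank 7 of 51 regions had peaks on all 3 induced days and none on day 0 (13.7%, exact Clopper-Pearson interval 5.70 to 26.3), and in the higher flank 2 of 34 (5.88%, 0.720 to 19.7). The span's 7 of 23 (30.4%, 13.2 to 52.9) overlaps both in its interval, and the difference was not tested. Regions seen on day 3 alone numbered 1 of 23 in the span, 8 of 51 in the lower flank and 8 of 34 in the higher one.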
